A study of Drosophila melanogaster with 12 samples.

Results

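Glycolysis was followed through 10 genes of *Drosophila melanogaster*, 9 encoding glycolytic enzymes and 1 encoding lactate dehydrogenase: Pfk, Tpi, Gapdh1, Gapdh2, Pgk, Pglym78, Pglym87, Eno, Pyk and ImpL3. They were chosen by name, with earlier results of these data known. All 10 were found among the 14001 genes of the deposited table, where Pyk is written PyK. ImpL3 is listed there under that name, and its current symbol is Ldh. RNA came from whole bodies of a strain sensitive to avermectins, labelled wild type, and of an avermectin-resistant strain. Third-instar larvae and adults of each strain were sequenced, with 3 libraries in each of the 4 groups. The labels give no sex or age for the adults, no genotype beyond the strain, and no statement that replicates came from separate cultures, so the p-values reflect how far these libraries spread, and that spread may be technical.

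Glycolysis splits glucose into pyruvate in the cytosol and yields ATP and NADH. Lactate dehydrogenase then turns pyruvate into lactate and returns NADH to NAD+, which lets glycolysis run on without the mitochondria. In fly larvae, which grow fast, glycolytic genes and ImpL3 are switched on together by the nuclear receptor ERR during embryogenesis, and this program of aerobic glycolysis is shut down around the end of larval life. In adults, flight muscle burns sugar through the same enzymes but sends the pyruvate to the mitochondria.

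The values are FPKM, fragment counts scaled to transcript length and to the library's total, which allow levels to be compared between genes. Steps between the low values of genes with 1 transcript gave an estimated 10840000 to 13080000 reads per library. Principal components separated the stages first. On the second component the third library of resistant larvae scored 8.91. Its group's other libraries scored 29.35 and 27.18, and the scores of sensitive larvae ran from -25.78 to -17.75. Where a call of a member is lost without it, the value without it is given beside the result. The larval markers of fat body and salivary gland summed to 54440 to 98985 FPKM in larvae and 81.7 to 389 FPKM in adults, as the stage labels say.

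The 10 genes stood at very different levels. Their summed level was 8340 ± 1497 FPKM in larvae and 8768 ± 1087 FPKM in adults of the sensitive strain (SD, n = 3 here and below). In the resistant strain it was 2342 ± 489 FPKM in larvae and 8366 ± 2120 FPKM in adults. Of all FPKM, the genes made up 0.835% in larvae and 1.02% in adults of the sensitive strain, and 0.265% in larvae and 0.962% in adults of the resistant strain. Resistant larvae thus stood apart from the other 3 groups. Gapdh1 was the highest gene by mean in every group and Pglym87 or ImpL3 the lowest. In sensitive larvae the order of means was Gapdh1, Gapdh2, Tpi, Eno, Pglym78, Pgk, ImpL3, Pyk, Pfk and Pglym87. The ranges of neighbours in that order overlapped except between Pglym78 and Pgk, between Pyk and Pfk, and between Pfk and Pglym87. In resistant larvae Pyk stood above Pgk and ImpL3, and the rest of the order was the same. Gapdh2 and Tpi, Eno and Pglym78, ImpL3 and Pfk, and Pfk and Pglym87 did not overlap there. In sensitive adults the order was Gapdh1, Eno, Gapdh2, Tpi, Pyk, Pglym78, Pgk, Pfk, ImpL3 and Pglym87. Neighbours did not overlap there between Gapdh1 and Eno, between Gapdh2 and Tpi, and from Pgk downwards. In resistant adults it was Gapdh1, Gapdh2, Eno, Tpi, Pglym78, Pyk, Pgk, Pfk, Pglym87 and ImpL3, with no overlap between Gapdh1 and Gapdh2, between Pgk and Pfk, and between Pfk and Pglym87.

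**Figure D1:**
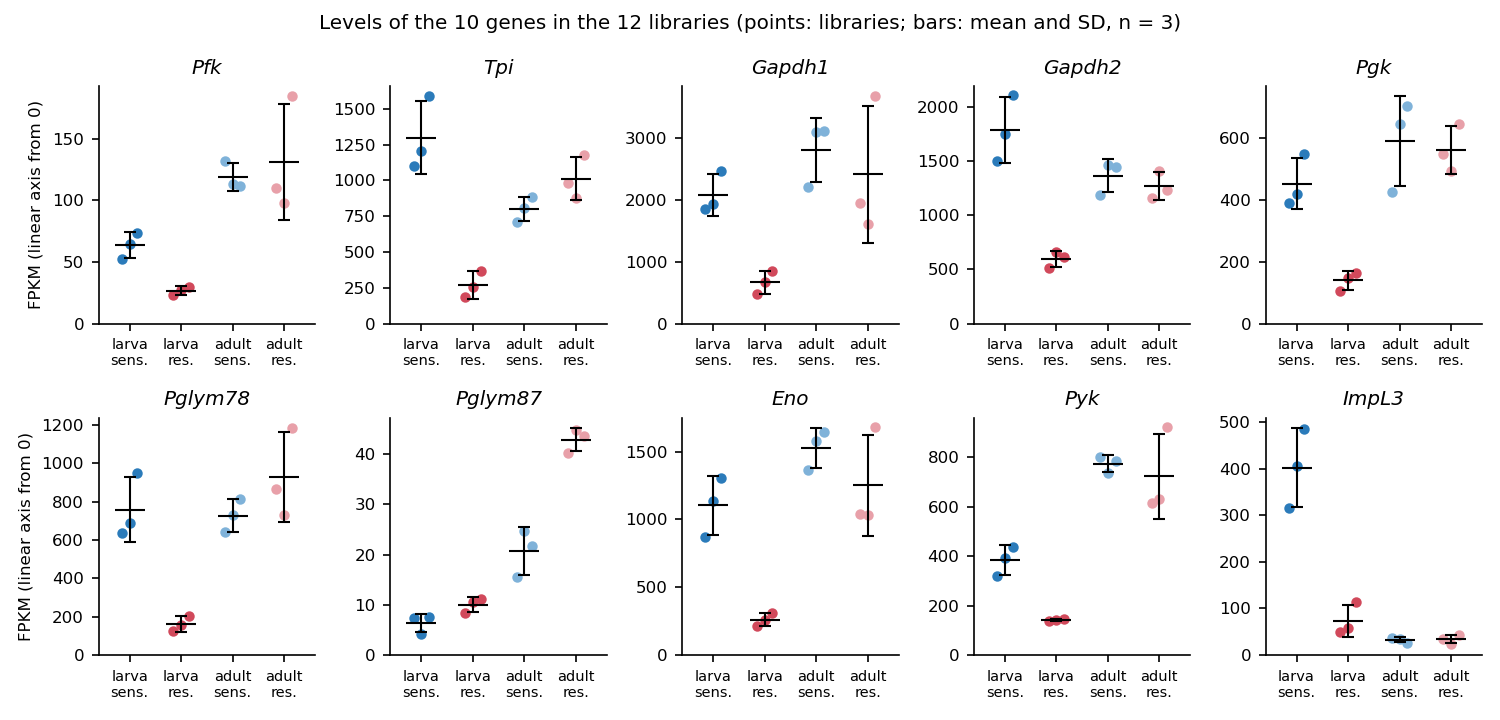
FPKM (linear axes from 0) of each of the 10 genes in the 12 libraries, with a panel per gene; points are libraries and bars the mean and SD of 3. Resistant larvae are the lowest group for every gene except Pglym87 and ImpL3, and ImpL3 is high in sensitive larvae.

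The plot of levels by group shows these values library by library, and the genes are taken here in the order of the pathway. Libraries are given in the order of replicates 1, 2 and 3. Coordinates are on the dm6 assembly, from the Ensembl annotation.

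Pfk (2R:10109740-10117457, plus strand, 5 transcripts) encodes phosphofructokinase, which adds the second phosphate to the sugar and commits it to glycolysis. It stood at 52.6, 64.5 and 73.6 FPKM in sensitive larvae and 23.1, 27.1 and 29.9 FPKM in resistant larvae. In sensitive adults it stood at 132, 113 and 111 FPKM, and in resistant adults at 110, 98.1 and 185 FPKM. The 3 resistant larvae lay below all other libraries, the sensitive larvae lay between them and the adults, and the adult strains overlapped.

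Tpi (3R:30132981-30134599, minus strand, 3 transcripts) encodes triosephosphate isomerase, which converts the triose phosphates left by aldolase into each other. Its level was 1099, 1209 and 1589 FPKM in sensitive larvae and 182, 253 and 370 FPKM in resistant larvae. Sensitive adults gave 710, 805 and 883 FPKM and resistant adults 981, 879 and 1176 FPKM. Every sensitive larva library was above every sensitive adult library, and the larval strains were far apart.

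Gapdh1 (2R:7791901-7793380, minus strand, 1 exon) and Gapdh2 (X:15868145-15869661, plus strand, 2 exons) both encode glyceraldehyde-3-phosphate dehydrogenase, the step that makes NADH. Gapdh1 stood at 1849, 1934 and 2472 FPKM in larvae of the sensitive strain and 479, 672 and 847 FPKM in those of the resistant strain. Adults of the sensitive strain gave 2220, 3105 and 3118 FPKM and those of the resistant strain 1952, 1610 and 3689 FPKM. Gapdh2 stood at 1502, 1744 and 2112 FPKM in larvae of the sensitive strain and 510, 659 and 612 FPKM in those of the resistant strain. Adults of the sensitive strain gave 1186, 1459 and 1444 FPKM and those of the resistant strain 1159, 1407 and 1235 FPKM. Both were lowest in resistant larvae with no overlap with the other groups. The genes are closely related, and no source used here says how reads shared between them were divided, so the split between them is uncertain.

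Pgk (2L:2746880-2753068, minus strand, 5 transcripts) encodes phosphoglycerate kinase, the first enzyme of the pathway to yield ATP. Its level was 390, 420 and 546 FPKM in larvae of the sensitive strain and 106, 148 and 164 FPKM in those of the resistant strain. Adults of the sensitive strain gave 425, 644 and 701 FPKM and those of the resistant strain 547, 493 and 646 FPKM. The sensitive larvae and both adult groups overlapped. Its exons overlap Cwc25 on the other strand, a gene with a mean of 10.4 FPKM.

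Pglym78 (3R:29148248-29149901, plus strand, 3 transcripts) and Pglym87 (3R:12231645-12232729, minus strand, 1 transcript of 1 exon) encode phosphoglycerate mutase, which moves the phosphate along the glycerate. Pglym78 stood at 634, 691 and 952 FPKM in larvae of the sensitive strain and 123, 155.97 and 205 FPKM in those of the resistant strain. Adults of the sensitive strain gave 640, 729 and 814 FPKM and those of the resistant strain 867, 731 and 1186 FPKM. Pglym87 stood at 7.34, 4.2 and 7.57 FPKM in sensitive larvae, 8.34, 10.6 and 11.3 FPKM in resistant larvae, 15.5, 24.8 and 21.8 FPKM in sensitive adults, and 40.3, 44.8 and 43.6 FPKM in resistant adults. The 4 groups of Pglym87 did not overlap, and they followed another order from those of Pglym78. All 3 resistant larvae lay above all 3 sensitive larvae for 54.1% of all genes tested, and resistant adults above sensitive adults for 23.6%. Larvae lay below adults for 59.4% of genes in the sensitive strain and 38.2% in the resistant strain. An estimated 52 to 142 reads in larvae and 193 to 527 in adults lie behind the Pglym87 values. Exons of Pglym78 overlap eIF2D, with a mean of 24.6 FPKM, on the other strand, and reads shared between the paralogs could not be told apart.

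Eno (2L:1724768-1729636, minus strand, 6 transcripts) encodes enolase, which makes phosphoenolpyruvate. It stood at 873, 1133 and 1303 FPKM in larvae of the sensitive strain and 215, 258 and 308 FPKM in those of the resistant strain. Adults of the sensitive strain gave 1363, 1575 and 1647 FPKM and those of the resistant strain 1039, 1033 and 1678 FPKM. Resistant larvae were again the lowest, and resistant adults overlapped both sensitive groups. Its exons overlap Rrp40 on the other strand, a gene with a mean of 19.4 FPKM.

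Pyk (3R:22367536-22372746, plus strand, 2 transcripts) encodes pyruvate kinase, which makes pyruvate and ATP. Its level was 318, 394 and 437 FPKM in larvae of the sensitive strain and 137, 143 and 147 FPKM in those of the resistant strain. Adults of the sensitive strain gave 799, 735 and 786 FPKM and those of the resistant strain 616, 630 and 921 FPKM. The resistant larvae varied little, with the 3 libraries within 10 FPKM of each other, and larvae of neither strain overlapped adults.

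ImpL3 (3L:6259105-6262694, minus strand, 4 transcripts) encodes lactate dehydrogenase. It stood at 316, 406 and 485 FPKM in sensitive larvae and 48.8, 58.6 and 113 FPKM in resistant larvae. In adults it stood at 37.1, 35.2 and 26.3 FPKM in the sensitive strain and 34.7, 24.7 and 43.7 FPKM in the resistant strain. It was the member that was high in larvae and low in adults, and the resistant larva with the highest value was replicate 3, the library that lay between the strains.

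The first comparison set larvae against adults in the sensitive strain. ImpL3 was 12.2-fold higher in larvae and Tpi 1.63-fold higher, while Pglym87 was 3.25-fold higher in adults. The differences below were tested with limma on log2(FPKM + 1) over all genes that reached 1 FPKM in at least 3 libraries, with Benjamini-Hochberg adjustment, and a gene is called at an adjusted p under 0.05. In limma the log2 difference, larva minus adult, was 3.57 for ImpL3 (SE 0.206, adjusted p 1.116e-06), 0.69 for Tpi (SE 0.195, adjusted p 0.01238) and -1.57 for Pglym87 (SE 0.246, adjusted p 0.0005097). These 3 were also called after median-of-ratios scaling, which brings the typical gene to the same level in each library, with log2 differences of 4.24, 1.37 and -0.95. "Rose", "fell", "higher" and "lower" are used of a test only where both fits called the gene.

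Scaling mattered in this comparison, because the median of all 11644 genes tested was -0.62 on the log2 scale and -0.04 after scaling. Called without and with scaling, 2 of the 10 genes were higher and 1 was lower in larvae, where 13.2% of all genes were higher and 29.0% lower. Without scaling, Pfk at -0.90 (SE 0.168, adjusted p 0.001387 in limma) and Pyk at -1.02 (SE 0.173, adjusted p 0.0007802) were called lower in larvae as well, which made 3 of 10 against 55.7% of all genes. After scaling these 2 came to -0.23 and -0.34, with adjusted p of 0.2996 and 0.1683. With scaling, Gapdh2 (1.07, adjusted p 0.003974) and Pglym78 (0.73, adjusted p 0.02681) were called higher, giving 4 of 10 against 26.0% of all genes. The scaled call of Pglym78 was lost without sensitive adults replicate 2, sensitive larvae replicate 2 or sensitive larvae replicate 3, with adjusted p of 0.06142 to 0.1012. Gapdh1, Pgk and Eno were called in neither fit, at -0.43, -0.37 and -0.49 without scaling and 0.26, 0.32 and 0.20 with it, so their direction depended on scaling. Without sensitive adults replicate 1, the fit without scaling called 8 of the 10 genes, 2 higher and 6 lower. All 3 larvae lay above all 3 adults for Tpi, Gapdh2 and ImpL3, as they did for 14.2% of genes, and below them for Pfk, Pglym87, Eno and Pyk, as for 59.4%. Over all genes 1538 were called higher and 6485 lower without scaling, and 3022 and 3371 with it.

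The same comparison in the resistant strain gave another picture. Every member except ImpL3 was lower in larvae than in adults, by 2.13-fold for Gapdh2 up to 5.75-fold for Pglym78. ImpL3 was 2.14-fold higher in larvae. All 10 were called without and with scaling, 9 lower against 28.3% of all genes and 1 higher against 17.4%. In limma the log2 difference of Pglym78 was -2.52 (SE 0.275, adjusted p 1.762e-05), that of Pyk -2.31 (SE 0.239, adjusted p 1.136e-05), and that of Eno -2.24 (SE 0.270, adjusted p 3.859e-05). Pfk stood at -2.20, Pgk at -2.02, Tpi at -1.96, Gapdh1 at -1.80 and Gapdh2 at -1.10, and Pglym87 was 4.27-fold lower, with adjusted p from 1.729e-05 to 0.00208. The members' median was -2.01, beside -0.28 for all 12013 genes tested, and with scaling -1.73 beside -0.03. No larva overlapped an adult for any member, with all 3 larvae below the adults for 9 of the 10, as for 38.2% of all genes, and above them for ImpL3, as for 20.5%. Without resistant larvae replicate 1, the scaled call of Gapdh2 was lost, at -0.67 (adjusted p 0.05648 in limma).

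ImpL3 was the exception, at a log2 difference of 1.02 (SE 0.326, adjusted p 0.0219 in limma) and 1.29 with scaling (adjusted p 0.01291). Without resistant larvae replicate 3 the difference was 0.66 and its adjusted p 0.09261, so this call rested on that library in the fit without scaling. Over all genes 2095 were called higher and 4165 lower in resistant larvae without scaling, and 3000 and 3396 with it.

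**Figure D2:**
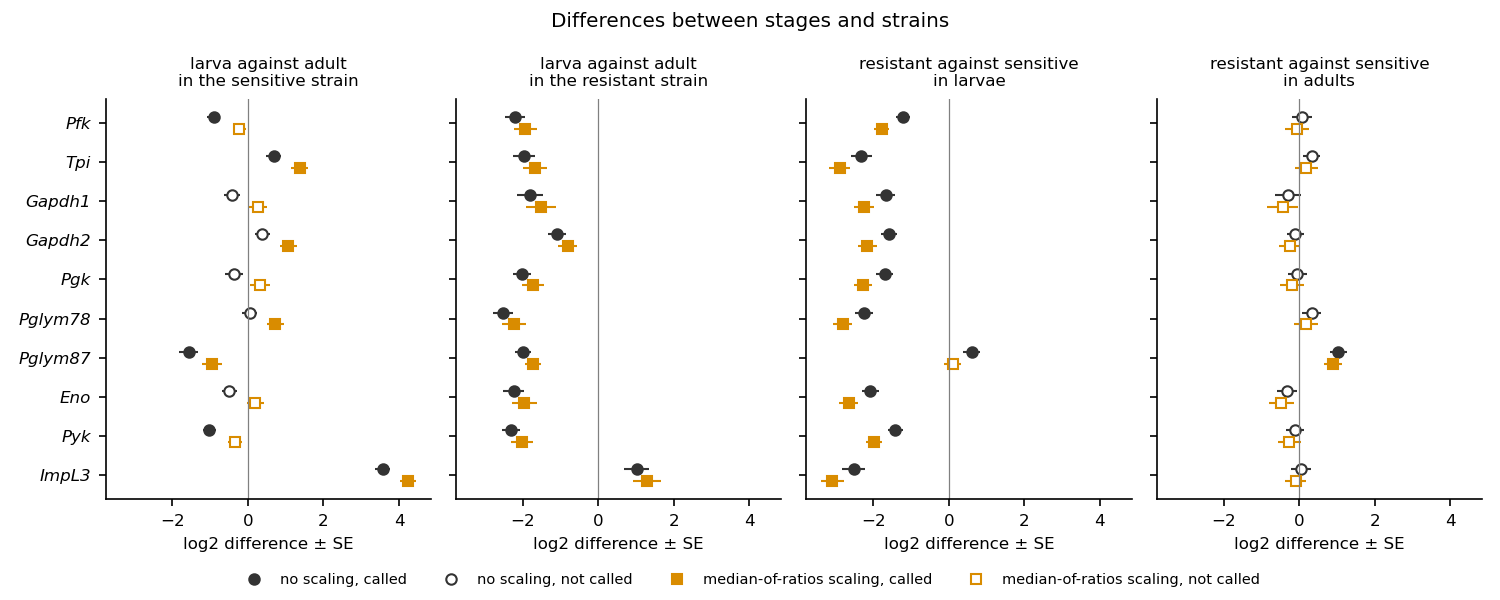
Log2 difference on the log2(FPKM + 1) scale with its SE for each gene in the 4 comparisons, without scaling (circles) and after median-of-ratios scaling (squares); filled symbols were called by limma at an adjusted p under 0.05. Of the 10 genes, 9 lie below 0 in the resistant stage comparison and in the comparison of larvae, while in adults Pglym87 alone is called.

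The stage difference was therefore compared between the strains in a single fit of the 12 libraries. For 9 of the 10 genes the larva-minus-adult difference was lower in the resistant strain, without and with scaling, against 9.61% of all genes. Tpi differed by -2.65 on the log2 scale (SE 0.355, adjusted p 0.0002523 in limma), Pglym78 by -2.56 (adjusted p 0.0002676) and ImpL3 by -2.55 (adjusted p 0.001032). Eno differed by -1.75, Pgk by -1.65, Gapdh2 by -1.48, Gapdh1 by -1.37, Pfk by -1.30 and Pyk by -1.29, with adjusted p between 0.002543 and 0.02816. Pglym87, at -0.43 (adjusted p 0.3164), was not called. Without sensitive larvae replicate 3, resistant larvae replicate 1 or sensitive adults replicate 1, Gapdh1 was no longer called, with adjusted p of 0.06492 to 0.07571 without scaling and 0.05767 to 0.06683 with it. Over all genes the fit called 2416 higher and 1224 lower without scaling, and 960 and 1922 with it.

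The strains were then compared in larvae. Of the 10 genes, 9 were lower in resistant larvae, from 2.38-fold for Pfk to 5.47-fold for ImpL3. All 9 were called without and with scaling, against 9.82% of genes called lower, and all 3 resistant libraries lay below all 3 sensitive libraries for each of them, as they did for 11.1% of genes. The log2 difference was -2.51 for ImpL3 (SE 0.308, adjusted p 0.0005302 in limma), -2.31 for Tpi, -2.24 for Pglym78 and -2.08 for Eno. Pgk stood at -1.70, Gapdh1 at -1.67, Gapdh2 at -1.58, Pyk at -1.41 and Pfk at -1.22, and the adjusted p of the 9 lay between 0.0002146 and 0.0008617. All 9 stayed called when any single library was left out. The sensitive larvae also serve in the stage comparison of their strain, so these results are not independent of those above.

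Pglym87 did not share the direction of its paralog, with 6.37 ± 1.88 FPKM in the sensitive and 10.1 ± 1.53 FPKM in the resistant larvae. Its log2 difference was 0.61 (adjusted p 0.03452 in limma) without scaling, against 48.8% of all genes called higher, and 0.11 (adjusted p 0.7384) with scaling. The median of all 11055 genes tested was 0.49, and 0.02 after scaling, beside a median of -1.68 for the 10 genes and -2.25 after scaling. Without resistant larvae replicate 3 the log2 difference of Pglym87 was 0.53 and its adjusted p 0.1006, and the call was also lost without resistant larvae replicate 2 (adjusted p 0.07488) or sensitive larvae replicate 2 (0.38, adjusted p 0.1457). Without scaling 5396 genes were called higher and 1088 lower, and with scaling 1218 and 2124.

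In adults, 1 of the 10 genes was called between the strains. Pglym87 was 2.07-fold higher in resistant adults, at 42.9 ± 2.34 against 20.7 ± 4.73 FPKM, with no overlap. Its log2 difference was 1.04 (SE 0.232, adjusted p 0.01459 in limma) and 0.90 with scaling (adjusted p 0.03281), where 10.6% of all genes were called higher in both fits. All 3 resistant adults lay above all 3 sensitive adults, as for 23.6% of genes. With a library left out the call was kept in 4 of 6 fits without scaling and in 2 of 6 with it, where the adjusted p reached 0.1032. Without scaling it was lost without sensitive adults replicate 3 (adjusted p 0.05023) or resistant adults replicate 1 (adjusted p 0.06432). With scaling it was lost without either of these, without sensitive adults replicate 1 (0.69, adjusted p 0.05747) or without resistant adults replicate 3 (adjusted p 0.06169). The other 9 genes overlapped between the strains. Their log2 differences ran from -0.32 for Eno to 0.34 for Tpi, with adjusted p of 0.4375 or more, while 3.95% of all genes were called lower. The SE of these differences was 0.225 to 0.334, and Pfk and ImpL3 changed sign with scaling.

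Ratios within a library bear on the members without any scaling, and are given as values with no test. ImpL3 over Pyk, lactate dehydrogenase against the enzyme that supplies its substrate, was 1.04 ± 0.0584 in sensitive larvae and 0.513 ± 0.226 in resistant larvae. In adults it was 0.0426 ± 0.0079 in the sensitive strain and 0.0476 ± 0.0086 in the resistant strain. The resistant larvae ran from 0.356 to 0.772, below all the sensitive larvae and above all adults. Among the paralogs, Gapdh1 over Gapdh2 was 1.17 ± 0.0613 in sensitive larvae, 1.11 ± 0.237 in resistant larvae and 2.05 ± 0.158 in sensitive adults. In resistant adults it was 1.94 ± 0.947, with libraries from 1.14 to 2.99, so those adults overlapped every other group. Pglym87 came to 0.853% of Pglym78 in larvae and 2.83% in adults of the sensitive strain, and to 6.35% and 4.82% in those of the resistant strain. Pfk over Pyk was nearly level, from 0.154 to 0.187 in group means. Eno over Tpi ran from 0.851 in sensitive larvae to 1.91 in sensitive adults, and was 1.01 in resistant larvae and 1.22 in resistant adults.

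**Figure D3:**
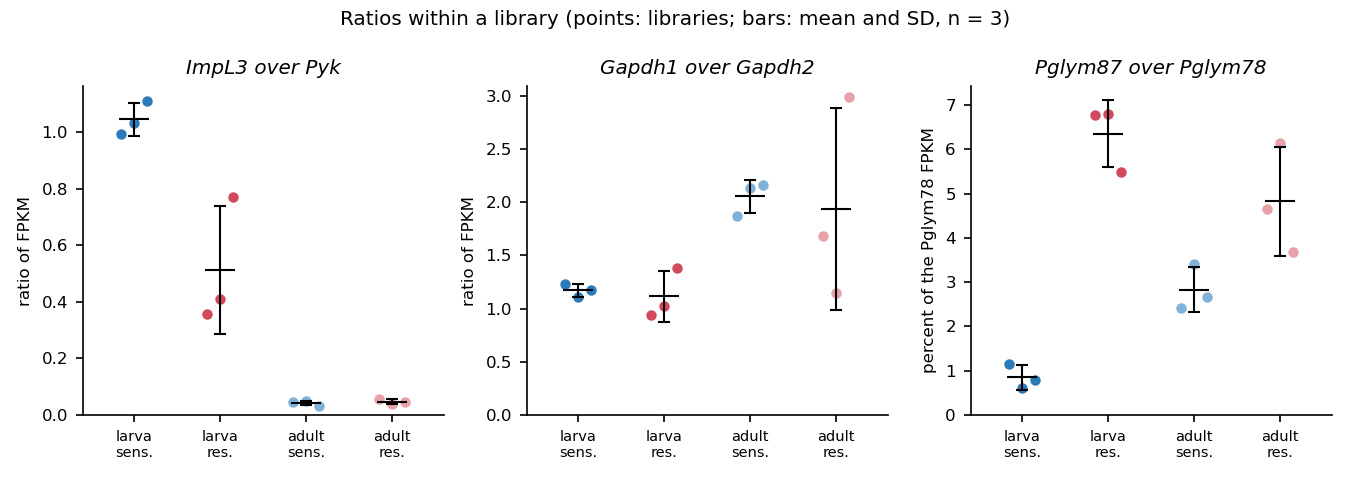
Ratio of FPKM within each library for ImpL3 over Pyk and for Gapdh1 over Gapdh2, and Pglym87 as a percent of Pglym78, on linear axes from 0; points are libraries and bars the mean and SD of 3. ImpL3 over Pyk is near 1 in sensitive larvae only, and Pglym87 over Pglym78 is lowest there.

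Genes whose levels followed those of the members most closely were sought over the 12 libraries among 8882 genes with a mean of at least 5 FPKM, by Pearson's r of log2(FPKM + 1). The libraries form stage and strain groups, so r describes mostly the 4 group means. ImpL3 was most like Lcp65Aa (r = 0.989), CG32603 (0.987), Cpr67Fa2 (0.983), obst-E (0.981) and CRAT (0.981). Among these, Lcp65Aa and Cpr67Fa2 are cuticle protein genes and obst-E encodes a chitin-binding protein, and Lcp65Aa ran from 53.6 FPKM in sensitive larvae to 3.72 FPKM in resistant larvae. Pglym87 was most like CG8526 (0.995), Porin2 (0.993), CG7755 (0.992), CG16741 (0.991) and CG32299 (0.990). Porin2, a mitochondrial porin gene, stood at 13.8 FPKM in larvae and 35.3 FPKM in adults of the sensitive strain, and at 21.1 and 73.9 FPKM in those of the resistant strain. The mean of the other 8 members was most like CG9331 (0.983), Got2 (0.978), Mgstl (0.976), CG1907 (0.976) and Pgi (0.975). Pgi encodes phosphoglucose isomerase, the second step of glycolysis, and Got2 an aspartate aminotransferase.

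Other genes of sugar metabolism were read from lists, chosen with earlier results of these data known. In larvae of the resistant against the sensitive strain, 3 of 6 genes of upper glycolysis were lower without and with scaling and 0 were higher, beside 9.82% of all genes called lower, the share to set beside every count of lower genes in this and the next paragraph. Ald1, which encodes the aldolase that feeds Tpi, was at 236 ± 55.0 against 861 ± 139 FPKM. Pgi was at 109 ± 7.17 against 260 ± 35.6 FPKM, and Hex-C, a hexokinase gene, at 0.777 ± 0.297 against 3.96 ± 0.852 FPKM. Hex-C passed the filter of 1 FPKM through the sensitive larvae and stood near the floor in resistant larvae. Without scaling, 2 of the 6 genes of upper glycolysis were called higher in resistant larvae, as were 48.8% of all genes. Of the 9 tested paralogs of glycolytic enzymes, genes with low levels such as Ald2 at 4.21 ± 0.735 FPKM in resistant larvae, none was called in both fits, and 8 were called higher without scaling, as were 48.8% of all genes. Of 7 pentose phosphate genes, which draw on the same sugar to make NADPH, 5 were lower, and Pgd, 6-phosphogluconate dehydrogenase, was at 60.0 ± 11.5 against 180 ± 46.5 FPKM. Pglym87 was not alone in adults, where 2 of the 9 tested paralogs were higher in the resistant strain in both fits and 6 without scaling. Of all genes, 10.6% and 15.9% were. The 2 were Ald2, at a log2 difference of 0.94 (adjusted p 0.01813 in limma), and CG9010, at 0.88 (adjusted p 0.02036). Hex-t1 of upper glycolysis was also higher, at 0.97 (adjusted p 0.01193).

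In the remaining lists of enzymes, the larval strains differed in part of each list. Of 17 genes of the tricarboxylic acid cycle, 9 were lower in resistant larvae, among them Mdh2, the mitochondrial malate dehydrogenase, at 134 ± 16.99 against 345 ± 37.5 FPKM. The lists for pyruvate entry into mitochondria and for glycerol phosphate and gluconeogenesis gave 3 of 6 and 4 of 6 lower. Pdhb, a subunit of pyruvate dehydrogenase, was at 81.3 ± 9.74 against 167 ± 21.5 FPKM. Gpdh1, which like ImpL3 restores NAD+ by making glycerol phosphate, was at 117 ± 45.0 against 296 ± 39.0 FPKM. Of the 4 malate and hydroxyglutarate genes 3 were lower, and Mdh1, the cytosolic malate dehydrogenase, was at 356 ± 69.7 against 1008 ± 135 FPKM. Of 10 trehalose and glycogen genes 4 were lower, with AGBE, the glycogen branching enzyme, at 21.1 ± 4.72 against 79.8 ± 18.2 FPKM. None of the 9 regulators was called in both fits, and 6 were called higher without scaling, as were 48.8% of all genes. ERR stood at 13.8 ± 1.55 against 6.79 ± 1.33 FPKM, a log2 difference of 0.93 (adjusted p 0.002094 in limma) that was 0.42 with scaling (adjusted p 0.1131).

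Between the stages, most genes of the lists for the tricarboxylic acid cycle, pyruvate entry, and trehalose and glycogen were lower in larvae of both strains, which share no library. Other lists did not move alike in the strains. In the sensitive strain 14 of 17 tricarboxylic acid cycle genes were lower in larvae and 1 was higher, and in the resistant strain 15 were lower and 1 was higher. Of all genes, 29.0% were lower and 13.2% higher in sensitive larvae, and 28.3% and 17.4% in resistant larvae, and the counts that follow are to be read beside those shares. SdhA, a subunit of succinate dehydrogenase, was at 62.1 ± 6.39 FPKM in sensitive larvae and 304 ± 12.3 FPKM in sensitive adults. Trehalose and glycogen genes were lower for 7 of 10 in sensitive and 8 of 10 in resistant larvae. Tps1, the trehalose synthase, stood at 48.9 ± 3.59 FPKM in sensitive larvae and 443 ± 27.9 FPKM in sensitive adults. Pyruvate entry genes were lower for 4 of 6 in both strains, with 0 higher in sensitive and 1 higher in resistant larvae. Pentose phosphate genes were lower for 1 of 7 in sensitive and all 7 in resistant larvae. Of the 4 malate and hydroxyglutarate genes, 1 was higher and 0 lower in sensitive larvae, and 0 were higher and 2 lower in resistant larvae. Of the 6 glycerol phosphate and gluconeogenesis genes, 3 were higher and 1 lower in sensitive larvae, and 2 were higher and 2 lower in resistant larvae. Upper glycolysis genes were lower for 2 of 6 in sensitive and 5 of 6 in resistant larvae, with 0 higher. Of the 9 regulators, 3 were lower and 0 higher in sensitive larvae, and 0 were lower and 1 higher in resistant larvae. ERR was lower in sensitive larvae, at -1.41 (adjusted p 0.0001295 in limma) and -0.785 with scaling, and was not called in the resistant strain. The gluconeogenic gene Pepck2 was higher in larvae of both strains, at 60.9 ± 8.73 against 25.0 ± 3.56 FPKM in the sensitive strain and 94.0 ± 34.0 against 16.5 ± 2.71 FPKM in the resistant strain.

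**Figure D4:**
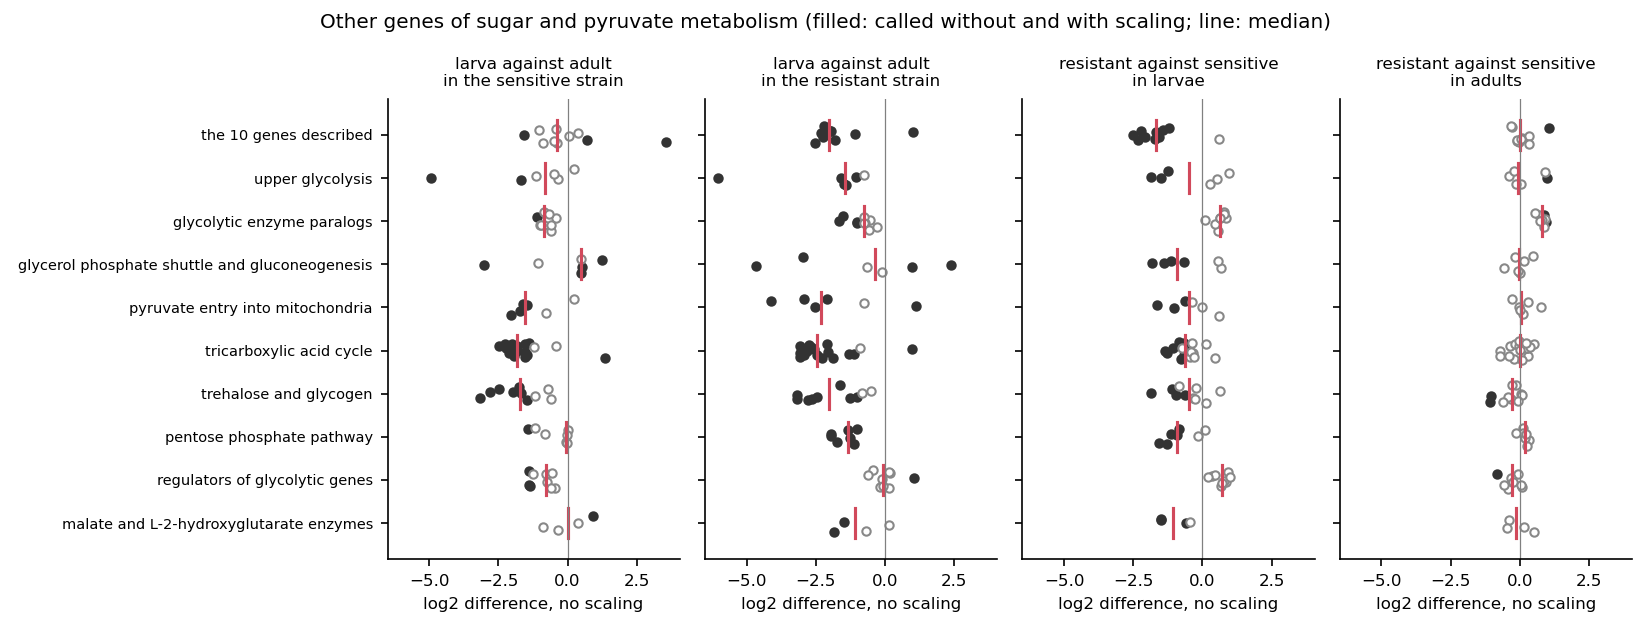
Log2 difference without scaling of each gene, by list, in the 4 comparisons; filled points were called without and with scaling and the line is the list's median. The 10 genes described have the lowest median, -1.68, in the comparison of larvae, and most tricarboxylic acid cycle genes lie below 0 in both stage comparisons.

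Muscle markers were lower in resistant larvae, as the members were, both against sensitive larvae and against resistant adults, and their part in these results was not tested. For the difference of the stage effect between the strains, 14 of 17 muscle markers were lower and 0 higher in both fits. Of all genes 9.61% were lower, and 9 of the 10 members were. That difference takes in the adults, where 6 of the 17 muscle markers were higher in the resistant strain in both fits, against 10.6% of all genes. Between the stages of the sensitive strain and between the adult strains, muscle differed from the members. The muscle sum was lower in sensitive adults than in sensitive larvae and higher in resistant than in sensitive adults, while the members' sum overlapped in both. In whole bodies, fewer cells of a type and less RNA per cell cannot be told apart. The 17 muscle markers summed to 13870 to 22540 FPKM in sensitive larvae and 4324 to 9326 FPKM in resistant larvae, without overlap, and 10 of the 15 tested were lower in resistant larvae, against 9.82% of all genes. The 15 include Act88F, at 1.39 in sensitive and 0.23 FPKM in resistant larvae, and Act79B, at 1.90 and 0.363 FPKM. Both passed the filter of 1 FPKM only through the sensitive larvae, so a call of higher was not possible for them. Sensitive adults gave 7888 to 10423 FPKM and resistant adults 15532 to 33567 FPKM. In the sensitive strain 9 of 17 muscle markers were higher and 5 lower in larvae, against 13.2% and 29.0% of all genes, and in the resistant strain 11 of 17 were lower, against 28.3%. The 5 were Act88F, Act79B, TpnC4, TpnC41C and fln, with means of 0.217 to 1.90 FPKM in sensitive larvae. These 5 were also among the 11, with means of 0.187 to 0.963 FPKM in resistant larvae. At most 1 muscle marker was at 0 in a library. The members' sum over the muscle sum was 0.458 ± 0.044 in sensitive and 0.425 ± 0.124 in resistant larvae, which overlapped. It was 1.01 ± 0.247 in sensitive and 0.367 ± 0.0701 in resistant adults. Resistant adults replicate 3, which had the highest muscle sum, also had the highest level of its group for 8 of the 10 genes, all but Gapdh2 and Pglym87. Resistant larvae replicate 3 had the highest muscle sum of its group and the highest level of 9 of the 10 genes, all but Gapdh2.

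Testis markers, taken as a sum, had the same order of group means as Pglym87, but their single genes did not all follow it. The 11 testis markers summed to 158 to 187 FPKM in larvae and 255.1 to 420 FPKM in adults of the sensitive strain, and to 246 to 318 FPKM and 749 to 834 FPKM in those of the resistant strain, and none was at 0. Of the 10 tested, 6 were higher in resistant than in sensitive adults, against 10.6% of all genes. Between the stages of the sensitive strain, where Pglym87 was lower in larvae, 0 of 10 testis markers were lower in both fits, 5 were lower without scaling, and fzo was higher in larvae (0.46 without scaling, adjusted p 0.03718 in limma, and 0.91 with it). In larvae, none of the 10 was called between the strains in both fits, and 9 were higher without scaling, against 48.8% of all genes. The 7 accessory gland markers summed to 434 to 984 FPKM in sensitive and 1381 to 2474 FPKM in resistant adults. Of the 7, 5 were higher in resistant adults in both fits, against 10.6% of all genes. Between the larval strains 0 of the 7 were tested, and up to 6 were at 0 in a larval library. Their larval sums, 0.37 to 1.31 FPKM in the sensitive and 0.06 to 0.39 FPKM in the resistant strain, overlapped near the floor and gave no order. The sum of the 7 ovary and yolk markers went the other way, at 13448 to 15209 FPKM in sensitive and 5922 to 9439 FPKM in resistant adults. That sum was mostly Yp1, Yp2 and Yp3. Of the 7, 2 were lower and 0 higher in resistant adults in both fits, against 3.75% and 10.6% of all genes. The germline gene osk stood at 106 ± 55.4 FPKM in sensitive and 119 ± 51.6 FPKM in resistant adults. The 8 photoreceptor markers, at 2045 to 2211 and 1752 to 2468 FPKM in sensitive and resistant adults, overlapped between them. The part of these tissues in the Pglym87 values was not tested.

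**Figure D5:**
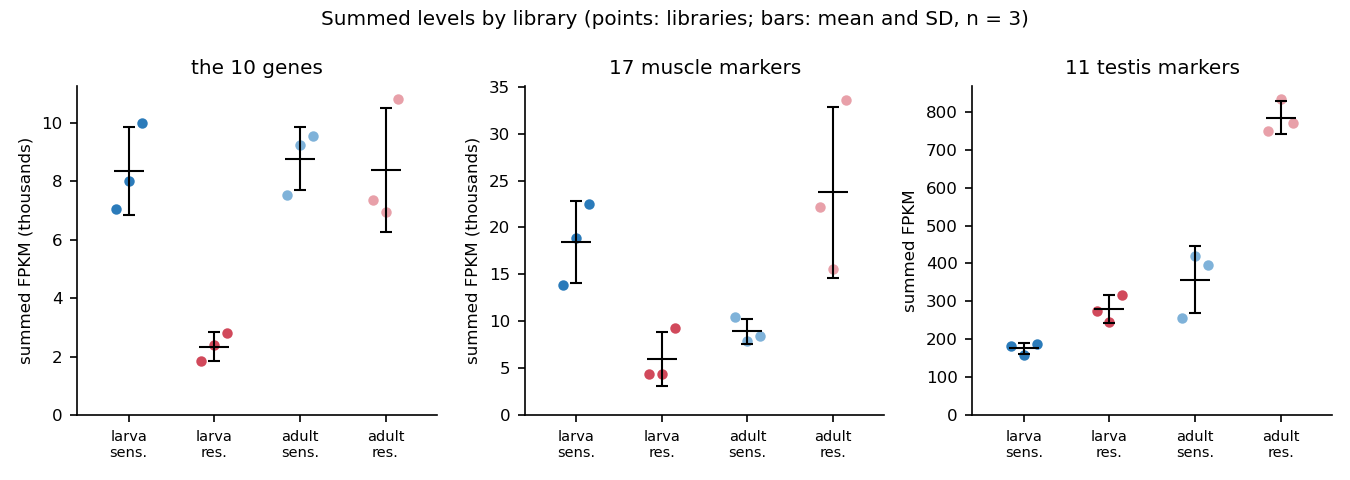
Summed FPKM by library for the 10 genes, for 17 muscle markers (both axes in 1000 FPKM) and for 11 testis markers, on linear axes from 0; points are libraries and bars the mean and SD of 3. The 10 genes and the muscle markers are both lowest in resistant larvae, and the testis markers are highest in resistant adults.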

How the data were processed

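The authors deposited 1 table of FPKM values for 14001 genes in 12 libraries of total RNA from whole bodies. Libraries were run on the BGISEQ-500 platform, as the labels' protocols state. RSEM 1.3.3, STAR, edgeR 3.12, FastQC 0.11.9 and dm6 are named in the submitters' processing notes, without settings, and no source used here says how multi-mapped reads and strand were handled. Genes were taken by identifier, and 13777 had a current symbol in the Ensembl annotation. limma 3.58.1 in R 4.3.3, with trend and robust options, was run on log2(FPKM + 1) of genes with at least 3 libraries at 1 FPKM, per pair of groups (6 libraries) and on all 12 for the difference between strains, two-sided, Benjamini-Hochberg adjusted over all genes. Fold changes on that scale understate those of low genes. Median-of-ratios scaling was computed on the FPKM. The steps were tested on simulated data. The members and lists were chosen with earlier results of these data known. Named genes were the 10 members, the 5 most alike by r, and up to 3 per list, comparison and direction by size of the log2 difference among those called in both fits, of which part is printed. Ald2, ERR and the markers named singly were added after their values were seen. Sequences were not used here. No 2 replicates were identical. Python 3.11.15 with matplotlib 3.10.9 drew the figures.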

Additional observations from a re-analysis of the deposited data

Results flagged for a closer look

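Of the 10 genes, 9 were flagged because the larva-minus-adult difference was itself tested to differ between the strains in a single limma fit of the 12 libraries. The difference, resistant minus sensitive on the log2 scale, was -1.30 for Pfk, -2.65 for Tpi, -1.37 for Gapdh1, -1.48 for Gapdh2, -1.65 for Pgk, -2.56 for Pglym78, -1.75 for Eno, -1.29 for Pyk and -2.55 for ImpL3. The same 9 genes were lower in resistant than in sensitive larvae, and none of them was called between the adult strains. Muscle markers were also lower in resistant larvae, and 14 of 17 were lower for the same difference between the strains, against 9.61% of all genes. That difference takes in the adults, where, unlike the 9 genes, 6 of the 17 were higher in the resistant strain in both fits, against 10.6%. Act88F, Act79B, TpnC4, TpnC41C and fln had means of only 0.187 to 1.90 FPKM in the larval groups. The part of muscle was not tested.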

How the results depend on the processing

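Of 800 results for single genes under alternatives, 767 stayed on the same side of the threshold, 21 lost a call, 12 gained one and none reversed a called direction. In the sensitive stage comparison the members called went from 5 to 8 with a common total, 2 higher and 6 lower, as Gapdh1, Pgk and Eno were added, and leaving out a library gave 5 to 8, the 8 without sensitive adults replicate 1. In adults the call of Pglym87 was lost at a threshold of 0.01, leaving 0, and leaving out a library gave 0 to 1. The other member counts with a library left out were 9 to 10 in the resistant stage comparison, 9 to 10 in larvae and 8 to 9 for the difference between strains. Over all genes, the 6484 called in larvae became 3342 with median-of-ratios scaling, 4068 with upper-quartile scaling and 4138 at a threshold of 0.01. The 2309 in adults became 600 at 0.01 and 497 to 2282 with a library left out, with 497, 951 and 1225 without resistant adults replicate 1, sensitive adults replicate 3 and sensitive adults replicate 2. The 3640 for the difference between strains became 1318 at 0.01 and 2117 to 4730 with a library left out, with 2117, 2315 and 2389 without sensitive larvae replicate 3, resistant larvae replicate 1 and resistant adults replicate 1. The cause of these shifts was not tested. Same-numbered libraries correlated at -0.262 to 0.525 in their deviations, and 15 of 36 comparisons of a library with another group were best with its own number. Between resistant larvae and sensitive adults the same-numbered values were 0.525, 0.292 and 0.184. With 3 libraries per group, these values cannot settle whether the numbers pair the libraries. With the replicate number as a block, the member counts were 6, 10, 10, 1 and 9, Eno being added in the sensitive stage comparison at -0.49 (adjusted p 0.03079, limma). Depth limits Pglym87, at 52 to 142 estimated reads in larvae.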
